A study of Homo sapiens with 4 samples.

Results

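The 10 genes described here, FOS, FOSL1, FOSL2, JUN, JUNB, EGR1, IER2, IER3, KLF6 and ATF3, are immediate early genes, of the 19663 protein-coding genes considered. They were chosen by name, with no measured value. A promoter peak of a gene is one whose summit lies no more than 1 kb from the start of any of its protein-coding transcripts, and a nearby peak has its summit in the gene or within 10 kb of it.

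Immediate early genes are switched on within minutes of a growth signal, without new protein synthesis. The RAS to ERK kinase cascade, through MEK, is a main route of this signal, and it acts in part through serum response factor and its ETS-family partners at CArG boxes. FOS and JUN family proteins pair through leucine zippers into the dimers of AP-1, which binds TGANTCA (N is any base). EGR1 and KLF6 bind other sites, and IER2 and IER3 are short nuclear or membrane-associated response proteins. c-MYC is itself the product of an immediate early gene and binds DNA with MAX, most tightly at the E-box CACGTG.

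The human pancreatic ductal adenocarcinoma line MIA PaCa-2 was profiled for c-MYC binding by chromatin immunoprecipitation and sequencing (ChIP-seq), which lists the regions (peaks) where immunoprecipitated DNA is enriched over the local background. The cells had received DMSO (the solvent), the inhibitor AMG510 at 100 nM or trametinib, an inhibitor of MEK, at 10 nM, each for 8 h. There was 1 library per group, with the c-MYC antibody under each treatment and with IgG under DMSO, so every difference below is between 2 libraries and could not be tested between conditions. The lists held 9552 peaks for c-MYC in DMSO, 10378 in AMG510, 5431 in trametinib and 2966 for IgG, from an estimated 22700000 to 24800000 tags per library. The number of tags (read ends piled up at the summit) was recovered from the deposited values and is given with its exact 95% Poisson interval. The interval covers counting error only, and is too narrow where mates of 1 fragment were counted separately. The length to which tags were extended before piling up was taken to be the width of the narrowest peak of each list. For c-MYC this was 177 bp in DMSO, 157 bp in AMG510 and 163 bp in trametinib. A longer extension raises the pileup, and the tags and intervals below were not corrected for this or for each library's enrichment. Fold enrichment is the pileup at the summit over the local background of that library.

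c-MYC peaks were found at more of these genes in DMSO than under either drug, as they were over all protein-coding genes. FOS, FOSL1, FOSL2 and ATF3, 4 of the 10 genes, had a promoter peak in the DMSO list, FOSL1 alone had one in the trametinib list, and the AMG510 and IgG lists held 0. The background was 24.2% of all protein-coding genes for DMSO, 15.3% for AMG510, 11.8% for trametinib and 0.559% for IgG. Among 10 genes, 0 in AMG510 and 1 in trametinib lie near these shares and are no result about these genes. In the gene or within 10 kb, the DMSO list had a peak at 7 genes, that of AMG510 at 2 (JUNB and ATF3), that of trametinib at 3 (FOSL1, JUNB and IER2) and that of IgG at 0, against 38.8, 33.7, 22.9 and 7.86% of all genes, respectively. The window around these genes is smaller than around most, since their median length was 5853 bp and that of all genes 27330 bp. Whether the DMSO counts, 4 and 7 of 10, differ from the shares of all genes was not tested. JUNB was the only member with a peak in each of the 3 c-MYC lists, and JUN, EGR1 and IER3 had none in any list.

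**Figure D1:**
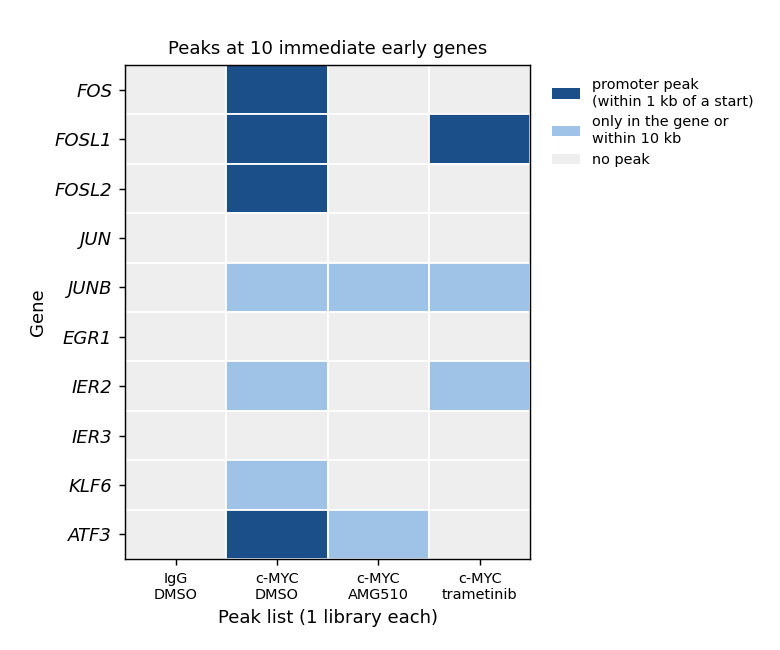
Peaks at the 10 genes (rows) in the 4 lists (columns, 1 library each), with dark blue for a promoter peak, light blue for a peak only in the gene or within 10 kb, and grey for none. Blue cells stand at 7 genes for DMSO, 2 for AMG510, 3 for trametinib and 0 for IgG.

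The 10 genes had 10 peaks in DMSO, 2 in AMG510 and 4 in trametinib. Of the 10 DMSO peaks, 2 were overlapped in AMG510 (JUNB and the upstream site of ATF3), 3 in trametinib (both sites of FOSL1, and JUNB) and 0 in IgG. Over the whole DMSO list these shares were 20.5% for AMG510, 17.1% for trametinib and 2.00% for IgG. Read against this background, 2 and 3 of 10 are no result about these genes. Of the 4 DMSO promoter peaks, 0 were overlapped in AMG510 and 1 in trametinib, where 33.1 and 27.7% of all DMSO promoter peaks were. The members' DMSO peaks held 13 to 24 tags. Among the 3118 DMSO promoter peaks in the same range of tags, 29.4% were overlapped in AMG510, 23.5% in trametinib and 58.8% in neither. Both drug comparisons share the DMSO library.

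**Figure D2:**
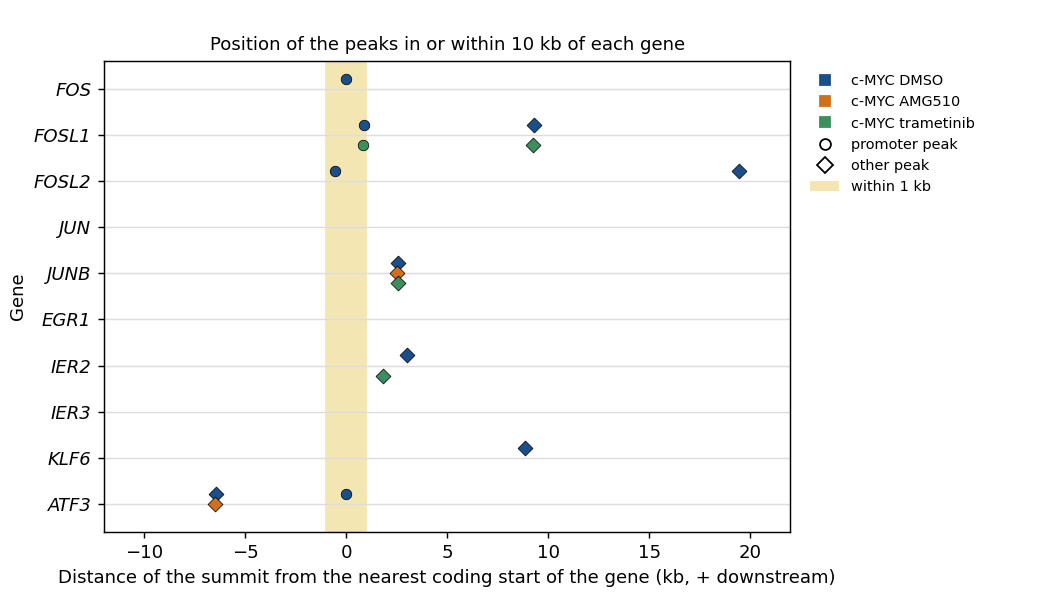
Position of every peak in or within 10 kb of the 10 genes, as the distance in kb of its summit from the nearest coding start of that gene (positive is downstream), coloured by library, with circles for promoter peaks, diamonds for the others and a band for 1 kb on either side. Summits of the 2 or 3 lists coincide at FOSL1, JUNB and the upstream site of ATF3, and lie apart at IER2.

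FOS, FOSL1 and FOSL2 encode proteins of the FOS family, which pair with JUN proteins, and each had a promoter peak in DMSO. FOSB, the other gene of this family, had no promoter or nearby peak in any list. FOS (chromosome 14, 75278826 to 75282230, plus strand) had a DMSO peak from 75278716 to 75278911 with its summit 16 bp before the first start. It was the weakest of the members' peaks by fold enrichment, at 3.76, with 14 tags (interval 7.65 to 23.5), above only 14.1% of the DMSO list. The nearest summit to a FOS start lay 102307 bp away in AMG510 and 209602 bp away in trametinib. The part of the FOS peak before the first start, at chr14:75278716-75278825 (GRCh38, plus strand), is shown because the summit falls within it. Capitals mark TGACGT, the core of a cyclic AMP response element, and the TATA box TATAAA, which lies 10 bp from the summit. No E-box was found in the FOS peak.
FOS promoter: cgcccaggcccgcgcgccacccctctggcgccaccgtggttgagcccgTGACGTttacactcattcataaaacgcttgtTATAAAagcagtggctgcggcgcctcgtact

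FOSL1, which encodes FRA1, was the only member with promoter peaks in more than 1 list. On chromosome 11 the gene spans 65892049 to 65900573 (minus strand), and its DMSO peak, from 65899359 to 65899677, had its summit in intron 1, 876 bp after the canonical start. The trametinib peak, from 65899416 to 65899786, had its summit 842 bp after that start, 34 bp from the DMSO summit. The DMSO summit held 19 tags (11.4 to 29.7) at a fold enrichment of 5.03, and the trametinib summit 15 tags (8.40 to 24.7) at 4.67. These intervals overlap. The peaks ranked above 65.8% of the DMSO list and 55.4% of the trametinib list, that is, near the middle of each. In AMG510 the nearest summit lay 169857 bp from a FOSL1 start.

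The FOSL1 stretch at chr11:65899359-65899658 (GRCh38, minus strand) is shown because it holds both summits. Capitals mark an E-box, 51 bp from the DMSO summit, followed by an AP-1 site, TGAGTCA, 120 bp from it, the only AP-1 site in any of the members' peaks.
FOSL1 intron 1: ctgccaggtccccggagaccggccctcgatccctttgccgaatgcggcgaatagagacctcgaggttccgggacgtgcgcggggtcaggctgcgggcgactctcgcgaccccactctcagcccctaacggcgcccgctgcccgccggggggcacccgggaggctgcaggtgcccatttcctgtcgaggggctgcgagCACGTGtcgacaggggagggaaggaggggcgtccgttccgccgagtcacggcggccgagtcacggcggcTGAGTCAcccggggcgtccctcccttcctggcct

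A second pair of peaks lay within 10 kb of FOSL1 but next to another gene. The DMSO peak from 65890984 to 65891214, with 16 tags (9.15 to 26.0), and the trametinib peak from 65890791 to 65891197, with 12 tags (6.20 to 21.0), had summits 25 bp apart. They lay 946 and 921 bp beyond the 3′ end of FOSL1, and 430 and 455 bp from the start of CCDC85B, which is the nearest coding start.

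FOSL2, which encodes FRA2, had peaks in DMSO only. Its promoter peak, from 28392072 to 28392357 on chromosome 2, had its summit 566 bp before the nearest coding start and 622 bp before the canonical start, with 21 tags (13.0 to 32.1) and a fold enrichment of 4.28. The other FOSL2 peak, from 28414908 to 28415161, lay in the 3′ UTR in exon 4 with 13 tags (6.92 to 22.2). In the drug lists the nearest summits were 285966 bp (AMG510) and 200650 bp (trametinib) from a FOSL2 start. The promoter peak at chr2:28392072-28392357 (GRCh38, plus strand) is shown as the member promoter peak in which none of the motifs searched was found.
FOSL2 promoter: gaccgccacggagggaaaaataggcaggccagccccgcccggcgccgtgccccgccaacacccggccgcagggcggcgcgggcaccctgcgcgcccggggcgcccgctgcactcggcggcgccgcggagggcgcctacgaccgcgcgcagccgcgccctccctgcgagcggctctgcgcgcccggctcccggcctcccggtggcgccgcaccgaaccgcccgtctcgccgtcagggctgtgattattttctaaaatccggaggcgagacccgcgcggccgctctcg

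Among the JUN family, whose proteins supply the partner of FOS in AP-1, c-MYC peaks were found at JUNB and not at JUN or at JUND, which is among the related genes described last. JUNB (chromosome 19, 12791486 to 12793315, plus strand, without introns) had a peak behind the gene in each c-MYC list and no promoter peak. The DMSO summit lay 749 bp past the gene end and 2578 bp from the start. The AMG510 summit lay 679 bp and the trametinib summit 745 bp past the end. The summit held 24 tags in DMSO (15.4 to 35.7), 18 in AMG510 (10.7 to 28.4) and 16 in trametinib (9.15 to 26.0). DMSO was highest, without correction for its longer extension, and all the intervals overlapped. The fold enrichments were 5.13, 4.64 and 4.12, above 70.1, 63.5 and 28.7% of the respective lists. The DMSO and trametinib summits were 4 bp apart, and the AMG510 summit was 70 bp from that of DMSO.

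At JUN itself (chromosome 1, 58776845 to 58784048) no summit lay within 10 kb. The nearest was 28380 bp from the start in trametinib, 129573 bp in DMSO, 203771 bp in AMG510 and 199734 bp in IgG.

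ATF3, a stress-responsive member of the ATF family that can pair with JUN proteins, had the strongest of the members' peaks. The gene lies on the plus strand of chromosome 1 from 212565334 to 212620777 and has several promoters. A DMSO peak from 212558685 to 212559016, 6475 bp before the first start, held 24 tags (15.4 to 35.7) at a fold enrichment of 6.35, above 89.2% of the DMSO list. An AMG510 peak from 212558762 to 212558967 lay inside it, with its summit 20 bp away, 17 tags (9.90 to 27.2) and a fold enrichment of 5.34, above 84.2% of the AMG510 list. The intervals overlap, and this site had no trametinib peak. At the canonical start, 212608761, DMSO had a further peak from 212608681 to 212608976 with its summit 34 bp before the start, 19 tags (11.4 to 29.7) and a fold enrichment of 5.42. The promoter peak was in neither drug list. In trametinib the nearest summit lay 84084 bp from an ATF3 start, closest to BATF3.

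The 2 ATF3 sites are shown because their peaks differed between the lists. The upstream stretch is chr1:212558717-212559016 (GRCh38, plus strand), with capitals for the noncanonical E-box CACGCG, an E-box CACGTG and an EGR site (GCGNGGGCG), in this order. All 3 lie outside the AMG510 peak, 116, 119 and 136 bp from the DMSO summit. The promoter stretch is chr1:212608681-212608760, the peak up to the start, with the TATA box TATAAA in capitals, 2 bp from the summit.
ATF3 upstream: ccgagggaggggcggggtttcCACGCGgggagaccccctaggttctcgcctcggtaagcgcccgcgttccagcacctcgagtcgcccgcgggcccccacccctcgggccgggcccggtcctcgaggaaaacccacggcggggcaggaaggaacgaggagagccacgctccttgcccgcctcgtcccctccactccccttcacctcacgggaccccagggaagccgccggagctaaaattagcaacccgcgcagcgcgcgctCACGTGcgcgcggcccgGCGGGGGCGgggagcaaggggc
ATF3 promoter: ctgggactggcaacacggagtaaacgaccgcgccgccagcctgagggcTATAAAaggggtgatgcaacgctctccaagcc

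The remaining members had no promoter peak. IER2, a small immediate early protein, lies on chromosome 19 from 13150411 to 13154911 on the plus strand. Its DMSO peak, from 13154893 to 13155071, had the summit 62 bp past the 3′ end, with 23 tags (14.6 to 34.5) and a fold enrichment of 3.76. The local background there was 5.38 tags, the highest at any of the members' peaks. The trametinib peak, from 13153458 to 13153961, was a different site, with its summit in the coding part of exon 2, 18 tags (10.7 to 28.4) and a fold enrichment of 4.48. A gap of 931 bp parted the peaks. The trametinib summit was 1834 bp from the nearest coding start, so that a limit of 2 kb would count it as a promoter peak. In AMG510 the nearest summit was 147780 bp away.

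The bases of the DMSO peak past the IER2 gene, at chr19:13154912-13155071 (GRCh38, plus strand), are shown because they hold an E-box, in capitals, 41 bp from the summit.
IER2 downstream: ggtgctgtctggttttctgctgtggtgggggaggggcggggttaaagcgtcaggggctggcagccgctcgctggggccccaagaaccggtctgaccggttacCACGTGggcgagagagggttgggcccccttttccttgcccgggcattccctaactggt

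KLF6, a zinc finger factor of the Krüppel-like family, had 1 peak, in DMSO, from 3776281 to 3776457 on chromosome 10. Its summit lay in the 3′ UTR in exon 4, 8863 bp from the nearest coding start, with 14 tags (7.65 to 23.5). EGR1, a zinc finger factor often used as a readout of ERK activity, had its nearest summits 26417 bp from the start in DMSO, 77280 bp in AMG510 and 68828 bp in trametinib. IER3, which is known for a role in cell survival, had them at 23114 bp in DMSO (closest to TUBB), 250185 bp in AMG510 and 173052 bp in trametinib. Peak lists hold only called regions, so the pileup at the starts without a peak is not known. Where the background was at its genome-wide level, the weakest peaks listed had 7 tags in AMG510 and 8 in DMSO and trametinib. Local backgrounds at the members' peaks were higher, from 2.18 to 5.38 tags, against genome-wide levels of 1.42 to 1.57 in the c-MYC lists. A peak there needs more tags than these minima, so a missing peak does not mean fewer than 7 or 8 tags.

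**Figure D3:**
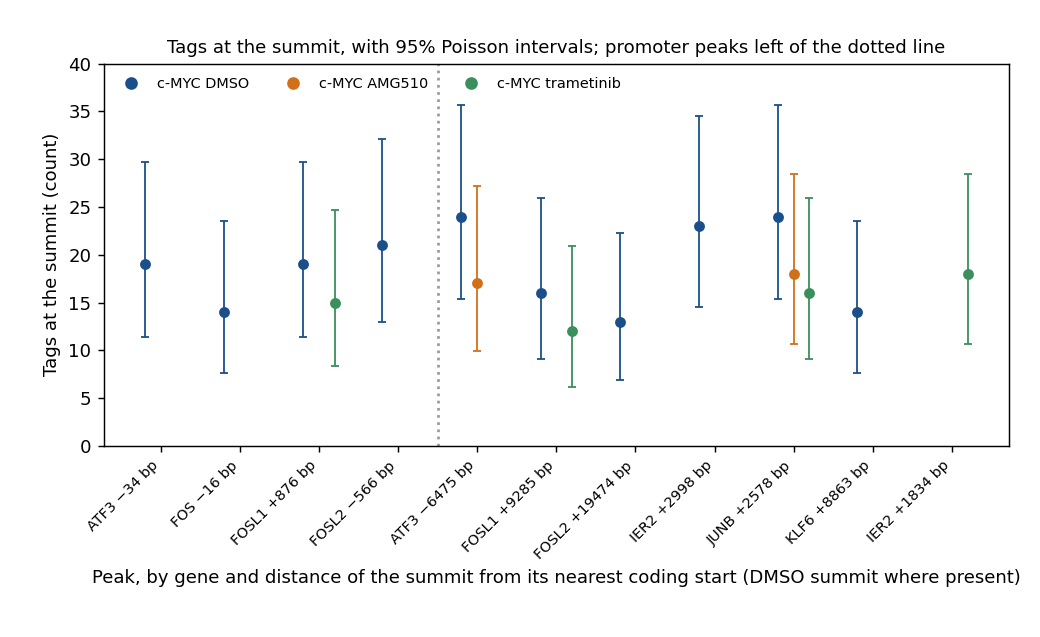
Tags at the summit of each peak near the 10 genes, with 95% Poisson intervals, grouped by site and coloured by library, with promoter peaks left of the dotted line. DMSO is highest at each site with peaks in several lists, and the intervals overlap at each of them. Tags are not corrected for the extension, which was longest in DMSO. As the intervals overlap and no group had a replicate library, this order is no result about these genes.

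The members' peaks held at least the median number of tags of their lists, while their fold enrichments lay on both sides of the medians. Fold enrichment ranged from 3.76 to 6.35 in DMSO, and 4 of the 10 peaks lay above the list's median of 4.60. Both AMG510 peaks and 1 of the 4 trametinib peaks lay above the medians of 4.42 and 4.53. The medians of tags were 19 for the members and 13 for the whole list in DMSO, 17.5 and 11 in AMG510, and 15.5 and 12 in trametinib. GC content within 100 bp of the summit had a median of 66.7% in DMSO, 74.4% in AMG510 and 73.9% in trametinib, where all peaks of these lists had 61.7, 50.2 and 53.2%.

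Sequence motifs were looked for within 100 bp of each summit, on both strands. An E-box was present at 3 of the 10 DMSO peaks (FOSL1 intron 1, JUNB and IER2), 0 of 2 in AMG510 and 2 of 4 in trametinib (FOSL1 intron 1 and JUNB). Over all peaks the shares were 11.3, 6.18 and 9.15%, respectively, and over all promoter peaks 16.9, 14.4 and 17.3%. The AP-1 site was within this distance at 0 of the members' peaks, against 3.87% of all DMSO peaks. The TATA box, which was added to the search after the sequences had been seen, was at 2 of the 4 DMSO promoter peaks (FOS and ATF3), against 0.845% of all DMSO promoter peaks. As it was chosen from these same sequences, this count supports nothing. In the RefSeq promoters (GRCh38.p14, 250 bases before to 50 after each start), 9 entries matched 8 of the members, without FOSL1 and IER3. KLF6 held an E-box there, FOSL2 an AP-1 site, EGR1 a CArG box, and EGR1 and KLF6 an EGR site. Over all 35116 promoters these motifs were found in 7.26, 7.71, 1.29 and 9.43%, respectively. CACGCG was in the promoters of FOS and JUNB (11.4% of all promoters), TGACGT in those of EGR1, FOS and FOSL2 (7.98%), and TATAAA in those of ATF3, FOS and JUNB (11.5%). The full cyclic AMP response element TGACGTCA was in 0 of the 9 (1.85%).

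To place the 10 genes within their pathway, 52 related genes were examined in 3 groups. Of 18 other AP-1 and ATF family genes, promoter peaks were present at 8 for DMSO, 5 for AMG510 and 5 for trametinib. Among serum response factor (SRF) and its partners, 8 genes, the numbers were 3, 5 and 2, and among 26 other immediate early genes 8, 5 and 4. No related gene had a promoter peak in IgG. Over the 52 genes the numbers were 19, 15 and 11. The shares of all protein-coding genes were 24.2% for DMSO, 15.3% for AMG510 and 11.8% for trametinib. Whether the members differ from these genes in any list, or the related genes from all genes, was not tested.

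**Figure D4:**
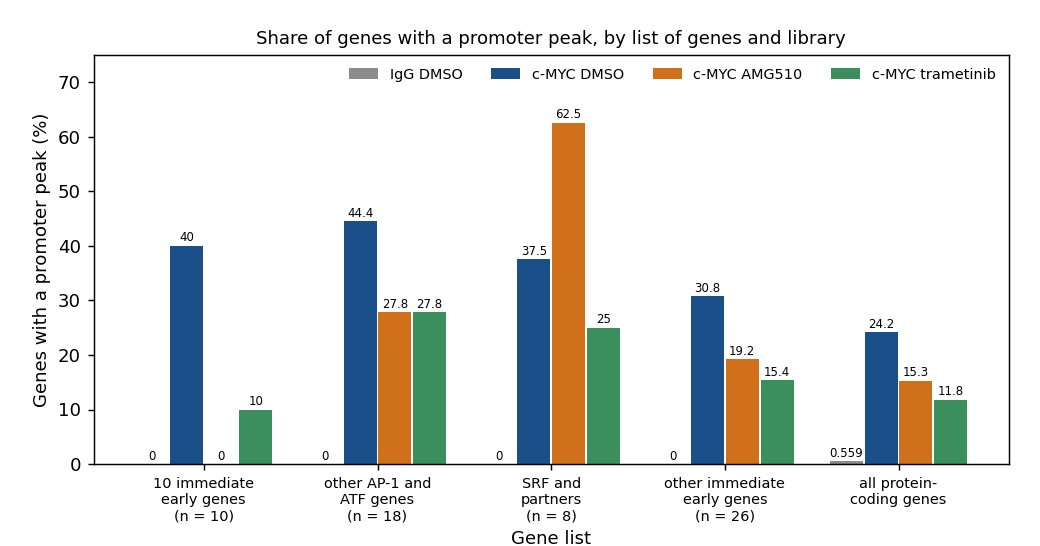
Share of genes with a promoter peak in percent, for the 10 genes, 3 groups of related genes and all protein-coding genes, with 1 bar per library. The 10 genes have no bar in AMG510, where 15.3% of all protein-coding genes had a promoter peak.

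A promoter peak in all 3 c-MYC lists was found at 5 related genes, ATF4, MAFK, NFE2L2, ELK4 and KLF4. At MAFK, a small MAF protein, the summit held 40 tags under DMSO (28.6 to 54.5), 19 under AMG510 (11.4 to 29.7) and 16 under trametinib (9.15 to 26.0). The DMSO interval overlapped that of AMG510 and not that of trametinib. At KLF4, a pluripotency factor of the family of KLF6, it held 27 tags in DMSO (17.8 to 39.3) and 19 in trametinib (11.4 to 29.7), and the AMG510 peaks 13 (6.92 to 22.2) and 14 tags (7.65 to 23.5). ELK4, an ETS partner of SRF, had 37 tags in DMSO (26.1 to 51.0), 15 in AMG510 (8.40 to 24.7) and 14 in trametinib (7.65 to 23.5), with the DMSO interval above both others. ATF4, the effector of the integrated stress response, had 24 (15.4 to 35.7), 18 and 18 (10.7 to 28.4 each). The peaks at ELK4 and ATF4 overlapped, but their summits differed in position. At ELK4 they lay 173 bp (DMSO), 460 bp (AMG510) and 115 bp (trametinib) from the start, and at ATF4 335, 10 and 5 bp. DMSO was the highest at each of these 4 genes, without correction for its longer extension. The median of tags over the whole list was also highest in DMSO, at 13, against 11 in AMG510 and 12 in trametinib. With 1 library per group, neither the order at these genes nor the gap between intervals at MAFK and ELK4 could be tested. Neither is a result about these genes. The oxidative stress factor NFE2L2 has several promoters, and the AMG510 peaks there, with 10 tags each (4.80 to 18.4), were not at the site of the trametinib peak, with 21 (13.0 to 32.1). A further 7 genes had a promoter peak in 2 lists. These were ATF1, CREM, SRF and ID1 in DMSO and AMG510, KLF9 and CCN2 in DMSO and trametinib, and ETS2 in AMG510 and trametinib. At ATF1, CREM and SRF peaks of both lists overlapped, whereas at ID1, KLF9 and ETS2 they lay at different sites within the 1 kb limit. The CCN2 peaks overlapped only at their edges, with summits 534 bp (DMSO) and 234 bp (trametinib) from the start.

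Most members shared their pattern over the 4 lists with many genes. A promoter peak in DMSO only, as at FOS, FOSL2 and ATF3, was seen at 2126 genes, or 10.8%, and among the related genes at ATF6, CREB1, MAFG, ELK3, EGR3, NR4A2, BTG2 and PPP1R15A. A promoter peak in DMSO and trametinib only, as at FOSL1, was seen at 573 genes, or 2.91%, with KLF9 and CCN2 among the related genes. No promoter peak in any list, as at JUN, JUNB, EGR1, IER2, IER3 and KLF6, was the pattern of 13370 genes, or 68.0%, and of 24 of the 52 related genes. These were FOSB, JUND, BATF, BATF2, JDP2, ATF2, ATF7 and MAFF of the AP-1 and ATF family, MRTFB and ETS1 among the partners of SRF, and EGR2, EGR4, NR4A1, NR4A3, IER5L, KLF2, KLF10, ZFP36, ZFP36L1, CSRNP1, GADD45B, ID3, PHLDA1 and SOX9 among the other immediate early genes.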

How the data were processed

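c-MYC and IgG ChIP-seq peaks of MIA PaCa-2 cells were used as deposited, with groups taken from the sample titles. By the study's methods and the submitters' processing notes, reads were trimmed with Trimmomatic 0.39, aligned to GRCh38 with BWA 0.7.17, filtered with SAMtools 1.9 for a mapping quality of at least 20, freed of duplicates with Picard and converted with bedtools 2.27.1, and peaks were called per library with MACS2 2.2.7.1 at a q-value of 0.05, then cleared of excluded regions. Each deposited list gives the fold enrichment, a ratio over the library's own background, −log10 of the p-value and of the q-value, and a score, which the authors' caller sets to 10 times the −log10 q-value. These depend on the library, so peaks were ranked within a list only.

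Pileups were solved from fold enrichment and p-value (checked on simulated peaks) and came out whole for 100% of peaks. Tags per library were estimated from the genome-wide background, the narrowest peak width, taken as the extension, and a genome size of 2700000000 bp. Genes were taken from GENCODE 44, counted by symbol without mitochondrial genes. Overlap means at least 1 bp. Printed sequences came from GRCh38, without UTR bases, and promoters for the motif search from RefSeq. The sequence at JUNB is not reported here. Python 3.11.15, pandas 2.3.3, scipy 1.17.1 and pysam 0.24.0 were used. With 1 library per group no test was run. All 10 members were named, as were related genes with a promoter peak in at least 2 c-MYC lists or with a member's pattern. CCDC85B, TUBB and BATF3 were named after their positions were seen, and the motifs TGACGT and TATAAA were added after the sequences were seen. The members, lists and motifs were chosen with earlier results of these data known. Alternatives were other score, fold, distance, start site and overlap limits and equal numbers of peaks.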

Additional observations from a re-analysis of the deposited data

How the results depend on the processing

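No paired analysis was possible because only 1 library was made per condition, so leaving out a replicate was not possible either. The 15 counts were recomputed under alternatives, and 59 of the 75 values stayed within 1.5 times of the reported count. Some of the 59 were fixed in advance, since a count of 0 cannot fall and many limits could only remove peaks. This held for the IgG counts and the AMG510 promoter count, so the 59 is no measure of stability. The 16 values that moved follow, 14 of them lower and 2 higher. A score above 60 left 2 genes with a promoter peak in DMSO (FOSL1 and ATF3) and 0 in trametinib, and 3 genes with a nearby peak in DMSO, 0 in AMG510 and 0 in trametinib. A fold enrichment above 5 left 2 and 0 genes with a promoter peak in DMSO and trametinib, and 3, 1 and 0 with a nearby peak in DMSO, AMG510 and trametinib. Over the whole lists, a score above 60 kept 2276 peaks in DMSO, 819 in AMG510 and 787 in trametinib. A fold enrichment above 5 kept 3355, 2279 and 1691 peaks. These limits cut the lists unequally, and the shares of all genes under them are not given, so the lower counts are no result about the members. With the summit within 500 bp, promoter peaks remained at 2 genes in DMSO (FOS and ATF3) and 0 in trametinib, while 2 kb gave 2 in trametinib. Within 5 kb, AMG510 had 1 gene with a nearby peak, and within 20 kb IgG had 1, at IER2. Asking for overlap over at least 50% of the shorter peak left 1 DMSO peak overlapped in AMG510, at ATF3. No alternative gave AMG510 a promoter peak at a member. Only the limit of 2 kb, the starts of every transcript and any overlap with the promoter window could have added one. The other alternatives could only remove peaks or starts. Counting any overlap with the window of 10 kb was an alternative chosen after the data were seen, and it moved no count beyond 1.5 times. With summits of 12 to 24 tags, a peak missing from a list cannot be told from a somewhat weaker one.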
